A study of Caenorhabditis elegans with 2 samples.

Results

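Peaks of the tagged transcription factor HLH-17 that lie inside exons, away from gene starts, are described here for whole Caenorhabditis elegans larvae. Chromatin immunoprecipitation and sequencing (ChIP-seq) recovers the DNA bound to a protein with an antibody and reports the places where reads pile up as peaks. A peak entered the set when its summit, the highest point of the pile, lay in an exon of a protein-coding gene on one of the 5 autosomes. Summits from 1000 bp upstream to 300 bp downstream of any gene start, coding or not, were left out. Of the 30000 peaks in the list that the authors called on both replicates together, 24440 were autosomal and 7603 met the rule. By chromosome, 1449 were on I, 1414 on II, 1354 on III, 1339 on IV and 2047 on V.

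The larvae were of strain OP643, which carries the integrated transgene wgIs643 in an unc-119(tm4063) background. The transgene holds hlh-17 with TY1, EGFP and 3xFLAG tags at the end of its protein, together with unc-119(+). Larvae of mixed sex at the first stage (L1) had been starved since bleaching and were 6 h old. Chromatin of whole animals was sonicated to 200 to 800 bp, and the antibody recognised the green fluorescent part of the fusion. There were 2 biological replicates in 1 group, so classes of peaks are compared and no condition is. All animals came from 1 transgenic line, every tissue entered the chromatin, and a signal from few cells cannot be told apart from a weak signal in many. The lists hold no read numbers, so the depth is unknown and intervals on shares and densities cover the counting of peaks only.

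The tagged protein belongs to the Olig family of basic helix-loop-helix (bHLH) factors, and its gene is known from glia of the worm's head. Proteins of this fold bind DNA as dimers at E-boxes, written CANNTG, where N is any base. Exons are transcribed sequence. Most exon sequence encodes protein, and the last exon usually ends in a 3' untranslated stretch that carries sites for microRNAs and RNA-binding proteins.

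In 7103 of the 7603 exonic peaks the summit lay in coding sequence. The 3' untranslated part held 378 summits, the 5' untranslated part 94, and exons with no coding assignment 28. The last exon of the host gene held 1386 summits, of which 1023 were coding and 358 were 3' untranslated, and 6080 coding summits lay in earlier exons. Every exonic peak was 384 bp long, close to the median length of 376 bp of the exons that held them, so a peak usually also covered intron. The median peak was 83.9% exonic, 1842 peaks were exonic from end to end, and 92.7% were at least 50% exonic. Along the spliced transcript, coding summits had a median position at 50.3% of its length, with quartiles at 31.7% and 69.4%. Exonic summits inside gene start windows, 3408 of 11011 exonic summits in all, do not belong to the set.

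Of the 10 coding sites that entered the authors' thresholded list, 7 are shown with the reference sequence at their summits, so that the letters at the top sites can be read. Those in suro-1, dapk-1 and T28F4.4 are described further on by their values. Each run has 30 bases, reads 5′ to 3′ on the coding strand of the gene, has the summit at base 16, and shows any E-box in capitals (RefSeq sequence of WBcel235, the assembly that ce11 denotes).
dos-3 (III:835988-836017, minus strand): CAGATGacccacataatcgcgatcatgcta
srw-61 (IV:16237760-16237789, minus strand): caaggccgtCATTTGcatttaaaacagtct
F53C11.4 (V:13786448-13786477, minus strand): aatcatcggaatcgggtcaagagtgtgttt
C05C10.3 (II:9934782-9934811, minus strand): tgtgatcgttgtaatggagcatgtatcgaa
pho-11 (II:9934053-9934082, plus strand): CAGCTGgaatatttatggaattccacagaa
che-6 (IV:2107657-2107686, minus strand): catcacaacctgcgggcaacaaccatggcc
unc-103 (III:4144007-4144036, plus strand): ctccgaagatcgacgaatcatcatgaggaa
The runs of dos-3, srw-61 and pho-11 hold 1 E-box each, of 3 different forms (CATTTG is CAAATG read on the other strand), and those of the other 4 genes hold 0. Within 50 bp of the summit, F53C11.4 and unc-103 also have an E-box.

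The thresholded list, made by the authors from the relaxed lists by how reproducibly peaks ranked, held 115 peaks, 101 of them autosomal. Exonic peaks supplied 12 of the 101, with pooled ranks from 20 to 112, where rank 1 is the highest deposited signal. This signal is the authors' own value, on an unstated scale that is not the same in every list, and serves only to rank within a list. Of the 12, 10 were coding and 2 were 3' untranslated, and 5 lay in the last exon. Below, a replicate is said to hold a pooled peak, or the peak to be found there, if its list has a summit at most 100 bp away. By this rule 7 of the 12 were found in both replicates, 8 in replicate 1 and 11 in replicate 2, and within 200 bp all 12 had a summit in both.

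The highest exonic peak lay in dos-3, which encodes a protein with the DOS motif of Notch co-ligands. Its summit (III, 836002) was in the last of 11 exons, 1054 bp from the nearest gene start and so just outside the window. Its pooled signal was 230 at rank 20, and its nearest summits ranked 63 in replicate 1 (114 bp away) and 12 in replicate 2 (1 bp away). It was thus among the strongest exonic peaks of both replicates, although the summit in replicate 1 missed the 100 bp rule.

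The peak in suro-1 (I, 7872315) was nearly as high, with a pooled signal of 227 at rank 22. It lay in the last of 10 exons and ranked 30 in replicate 1 and 29 in replicate 2, the closest pair of ranks among the 12. The summits of the replicates were 9 and 1 bp from the pooled summit.

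The peak in srw-61, a chemoreceptor gene of the srw family, followed at rank 45 with a signal of 188. It lay in exon 2 of 5 and ranked 1318 in replicate 1 against 30 in replicate 2. This was the single exonic peak within 25000 bp of the start of hlh-17, at a distance of 16990 bp. Extra copies of sequence carried by a transgene add reads there, but no source used here gives the ends of the transgene insert, and its part in this peak was not tested.

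The peak in dapk-1, the death-associated protein kinase gene known for its role in the epidermis, had rank 56 and a signal of 171. It lay in exon 12 of 13 on I and ranked 92 in replicate 1 and 130 in replicate 2. The peak in F53C11.4 (rank 68, signal 160, exon 3 of 6) ranked 87 and 256 in replicates 1 and 2. Both were high in both replicates.

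A pair of the 12 lay 728 bp apart on II, in neighbouring genes. That in the last exon of C05C10.3 had rank 83 and a signal of 155, and its nearest summits ranked 606 in replicate 1 (106 bp away) and 74 in replicate 2. That in pho-11, which encodes a member of the acid phosphatase family, had rank 87 and a signal of 154, and its nearest summits ranked 995 in replicate 1 (105 bp away) and 43 in replicate 2. Both were thus higher in the list of replicate 2.

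The peak in T28F4.4 (I, rank 90, signal 153) had its nearest summit of replicate 1 at rank 2654, 115 bp away, and ranked 71 in replicate 2. The peak in che-6, a gene of a cyclic nucleotide-gated channel, had rank 98 and a signal of 149.3 and ranked 749 in replicate 1 and 248 in replicate 2. The peak in unc-103, which encodes a potassium channel of the ERG type, had rank 112 and a signal of 147 and ranked 265 and 426 in replicates 1 and 2.

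The pair of 3' untranslated peaks in the list lay in W06H8.6 and mdt-15. W06H8.6 had rank 80 and a signal of 155 in its last exon of 3057 bp, and its nearest summits ranked 123 in replicate 1 and 167 in replicate 2 (152 bp away). A second 3' untranslated peak of the same exon followed at rank 141 (signal 141), with ranks of 252 and 289 in replicates 1 and 2. The gene held 4 exonic peaks in 2524 bp of eligible exon sequence. In mdt-15, a subunit of the Mediator complex known for its role in fatty acid metabolism, the peak had rank 96 and a signal of 150, and it ranked 8130 in replicate 1 against 64 in replicate 2. None of the 12 had a second copy in the genome (at least 90% identity over at least 100 of the 201 bp around the summit), and 8 had an E-box within 50 bp.

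**Figure D1:**
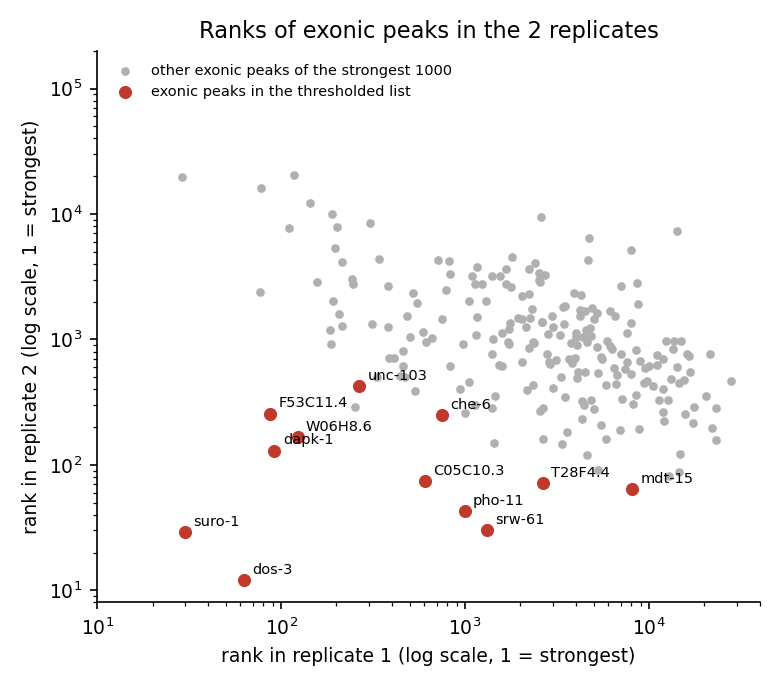
Rank in replicate 1 (horizontal, log scale) against rank in replicate 2 (vertical, log scale) of 230 exonic peaks of the pooled strongest 1000. Red points are the 12 thresholded exonic peaks, at the nearest summit of each replicate (up to 152 bp away). Grey points are the others, each found in both replicates within 100 bp. suro-1 and dos-3 stand apart at the lower left, while mdt-15 and T28F4.4 rank high in replicate 2 alone.

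Below the thresholded list, the strongest 3' untranslated peaks by the naming rule lay in ntl-3 and lgg-2. The peak in ntl-3, a subunit of the CCR4-NOT deadenylase, had rank 126 and ranked 4581 in replicate 1 and 120 in replicate 2. That in lgg-2, an Atg8 protein of autophagy, had rank 177 and ranked 166 in replicate 2, and its nearest summit in replicate 1 was 207 bp away. In the last exon, coding peaks followed in idpb-4 (rank 134, with 1 second copy in the genome) and in ndk-1, a nucleoside diphosphate kinase gene (rank 138). The peak in ndk-1 ranked 75 in replicate 1 but had no summit of replicate 2 closer than 773 bp. The replicates thus ranked the site in ntl-3 far apart, and those in lgg-2 and ndk-1 were found in only 1 replicate each. The site in idpb-4 ranked 442 in replicate 1 and 511 in replicate 2.

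Exon sequence was richer in peaks than any other class. The 16.7 Mb of eligible exon, that is exon outside gene start windows, held 455 peaks per Mb (exact Poisson 95% interval 445 to 465), against 227 (221 to 234) in introns, 221 (212 to 229) in intergenic sequence and 287 (281 to 293) in gene start windows. Exon was 32.2% of the eligible autosomal sequence and held 48.5% of the eligible peaks. The replicates alone gave 448 per Mb (replicate 1) and 445 per Mb (replicate 2) in exons, against 236 and 232 in introns. The ratio of exon to intron was 2.00 in the pooled list, 1.89 in replicate 1 and 1.92 in replicate 2. By chromosome, exons held 430 (II) to 481 (IV) peaks per Mb, and introns 195 (I) to 254 (V).

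Within exons, coding sequence was the densest part. It held 483 peaks per Mb (472 to 494), against 236 (213 to 261) in 3' untranslated sequence and 281 (227 to 344) in 5' untranslated sequence. Without regard to base composition, the 3' untranslated density was near the 227 of introns. Coding sequence of exons under 200 bp held 387 per Mb (368 to 407), that of exons of 200 to under 500 bp 514 (496 to 532), that of exons of 500 to under 1000 bp 547 (521 to 574) and that of exons of 1000 bp or more 478 (444 to 513). Coding sequence of last exons held 490 per Mb (461 to 521), and that of earlier exons 482 (470 to 494), with overlapping intervals. The median GC content within 50 bp was 41.6% in the former and 40.6% in the latter. These densities have no test, since peaks of the pooled list share their libraries.

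**Figure D2:**
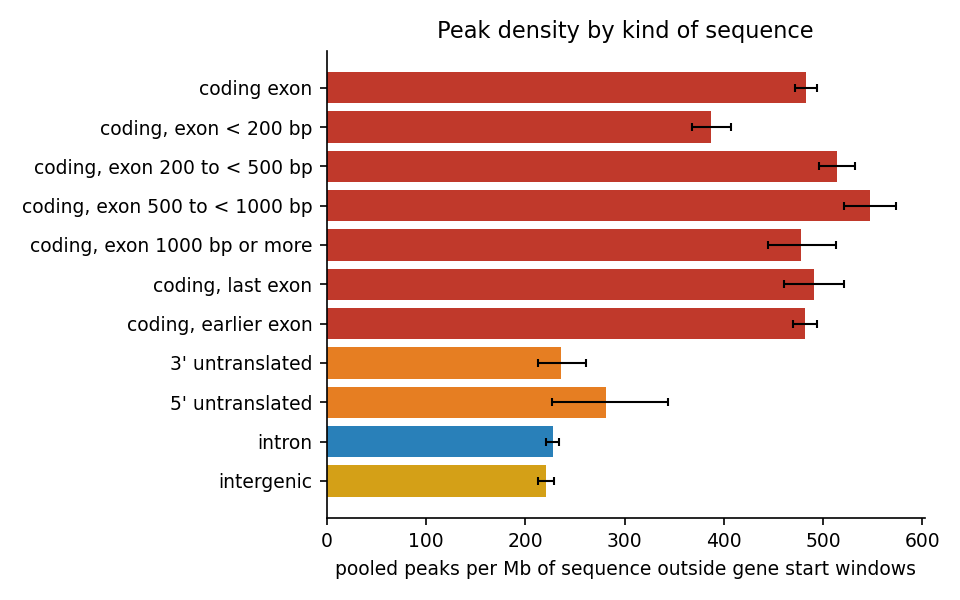
Pooled peaks per Mb of autosomal sequence outside gene start windows (horizontal), for coding sequence in red, untranslated exon in orange, introns in blue and intergenic sequence in yellow. Error lines are exact Poisson 95% intervals. All 7 coding bars reach at least 387 per Mb, against 281 or less for the 4 others.

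Base composition differed between these kinds of sequence, in an order that did not always match that of density. The median GC content within 50 bp was 40.6% for eligible exon bases, against 32.7% for introns and 33.7% for intergenic bases, and it was 30.7% in 3' untranslated sequence. The latter held 236 peaks per Mb, against 227 in introns and 221 in intergenic sequence. Coding sequence of exons of 1000 bp or more had 43.6% GC and 478 peaks per Mb. That of exons of 500 to under 1000 bp had 42.6% GC and 547 per Mb. In every class, density was higher where GC content was higher: exons held 184 peaks per Mb at 25 to 30% GC and 792 at 55 to 60%. At 40 to 45% GC, exons held 487 per Mb (467 to 509), introns 428 (402 to 455) and intergenic sequence 367 (338 to 398). Exon exceeded intron in each of the 8 bins that both filled, by 1.10 to 1.64 times, against 2.00 times without regard to GC. At 20 to 25% and at 55 to 60% GC the intervals of exon and intron overlapped. Among the 8 bins, 3' untranslated sequence ranged from 45.5 per Mb at 20 to 25% GC to 566 (442 to 714) at 40 to 45%, where coding sequence held 487 (465 to 509). In the 4 bins below 40% GC, coding sequence exceeded 3' untranslated sequence by 1.11 to 1.49 times, and at 40 to 45% it did not. Their intervals were apart only at 30 to 35% GC, and the bin of 20 to 25% held 4 coding and 11 3' untranslated peaks. In all 5 bins that it filled, the value of 3' untranslated sequence was also above that of introns, by 1.17 to 1.32 times. The intervals of these 2 kinds of sequence overlapped in each of the 5 bins. How far GC content accounts for the rest was not tested, and the reads of the control were not used here.

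**Figure D3:**
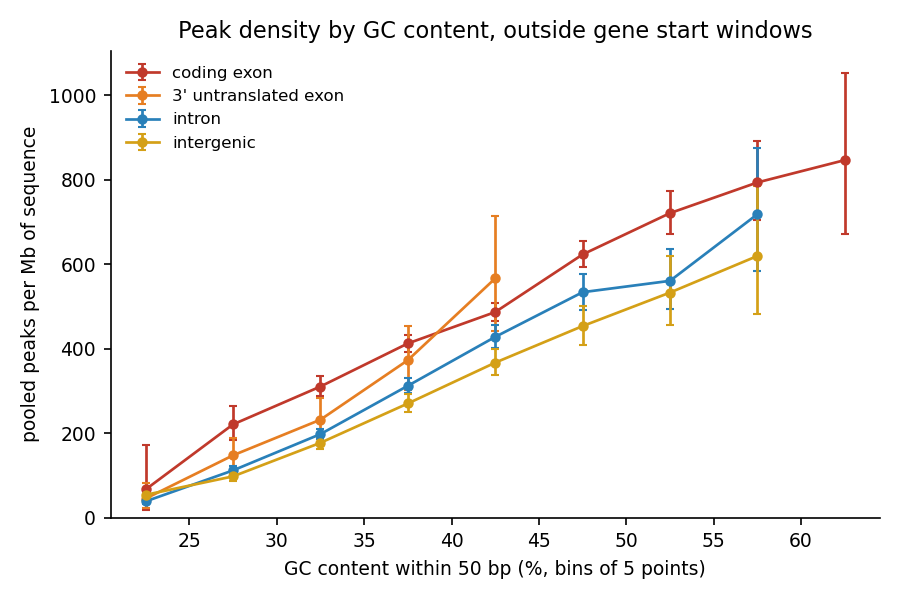
Pooled peaks per Mb (vertical) by GC content of the 101 bp around each base, in bins of 5 percentage points (horizontal), for coding exon, 3' untranslated exon, intron and intergenic sequence outside gene start windows. Error bars are exact Poisson 95% intervals. All 4 lines climb with GC content, and the coding line lies above the intron and intergenic lines in every shared bin.

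By rank, exonic peaks were scarce at the very top. They made up 11.9% (exact Clopper-Pearson 95% interval 6.29 to 19.8) of autosomal pooled peaks of ranks 1 to 115 but 35.3% (30.2 to 40.8) of those of ranks 116 to 500. The share was 34.0% at ranks 501 to 1000, 34.7% at 1001 to 3000, 31.9% at 3001 to 10000 and 30.4% (29.7 to 31.1) at 10001 to 30000. Gene start windows held 62.4% (52.2 to 71.8) of ranks 1 to 115 and 34.9 to 38.1% of the later bins. Each replicate alone showed the same order, with 15.3% (replicate 1) and 13.2% (replicate 2) exonic at ranks 1 to 115 and 28.1% and 33.1% at ranks 116 to 500.

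**Figure D4:**
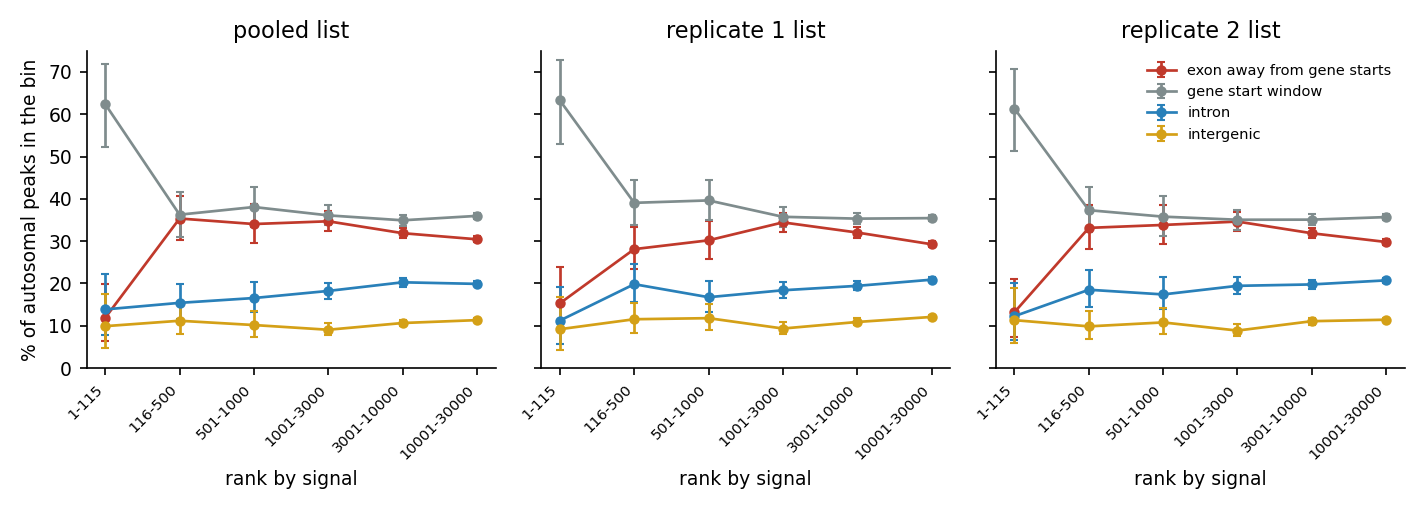
Share of autosomal peaks (vertical, %) by rank of signal (horizontal) in the pooled list and in each replicate, for exons away from gene starts, gene start windows, introns and intergenic sequence. Bars are exact Clopper-Pearson 95% intervals. In each list the exonic share is 11.9 to 15.3% in the first bin and 28.1 to 35.3% in the second.

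The thresholded list held the same 12 exonic peaks as ranks 1 to 115, so its test restates that bin and adds no separate evidence. Of exonic peaks 12 (0.158%) were in the thresholded list, against 63 of 8769 (0.718%) in gene start windows, which gave an odds ratio of 0.218 with a 95% interval of 0.107 to 0.409 (adjusted p = 3.99e-07, two-sided Fisher's exact test). The share over all autosomal peaks was 0.413%. Against introns (14 of 4821, 0.290%) the odds ratio was 0.543 (0.229 to 1.27; adjusted p = 0.345, Fisher's exact test), and against intergenic peaks (10 of 2685, 0.372%) it was 0.423 (0.167 to 1.09; adjusted p = 0.138). Adjusted p-values are Benjamini-Hochberg values over the 11 class comparisons, with a threshold of 0.05. Neighbouring peaks are not independent, so these tests treat peaks, not animals, as the units.

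Among the strongest 1000 pooled peaks were 273 exonic peaks (3.59%, 3.18 to 4.03), where all autosomal peaks had 3.5%. The share was 3.92% in gene start windows (odds ratio 0.912, Fisher's exact test, adjusted p = 0.420), 2.80% in introns (1.29, 1.04 to 1.61, Fisher's exact test, adjusted p = 0.0638) and 3.35% in intergenic sequence (1.07, Fisher's exact test, adjusted p = 0.643). None of these 3 passed. Of the 273, 225 (82.4%) were found in both replicates. The pooled ranks derive from the same replicates, and the share for other peaks of the strongest 1000 is not given here. Whether the 82.4% is particular to exonic peaks thus cannot be told here. Exonic peaks of the strongest 1000 had a median rank of 2842 in replicate 1 and 761 in replicate 2, each over those found there. The pooled order thus followed replicate 2 more closely. Over the whole set the median pooled rank was 14444, against 15186 in gene start windows, 15231 in introns and 15244 in intergenic sequence.

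Most exonic peaks were not found in both replicates. Of the 7603, 2126 (28.0%, 26.96 to 29.0) were, where all autosomal pooled peaks had 27.1%. Replicate 1 held 48.5% of exonic peaks, where all autosomal peaks had 47.7%, replicate 2 held 69.7%, where all had 69.2%, and 742 (9.76%) had a summit in neither. The share in both was 27.3% in gene start windows (odds ratio 1.03 with bounds 0.966 and 1.11, adjusted p = 0.461) and 27.8% in intergenic sequence (1.01 with bounds 0.914 and 1.11, adjusted p = 0.881, both by Fisher's exact test). In introns it was 25.6%, and the odds ratio for exons was 1.13 (1.04 to 1.23, adjusted p = 0.0191 by Fisher's exact test). This call was lost in 8 of 11 alternatives. One of them kept only peaks of 40 to 45% GC, where 27.9% of exonic and 27.5% of intronic peaks were found in both (odds ratio 1.02, Fisher's exact test, adjusted p of 1), and without replicate 1 the odds ratio was 1.01. In exons the share found in both was 19.1% at 25 to 30% GC and 32.8% at 55 to 60%.

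Agreement in rank was weak in exons as elsewhere. Across the 2126 exonic peaks found in both replicates, Spearman's rho of the 2 ranks was 0.164, and across the 4506 other autosomal peaks found in both it was 0.174. These are descriptions across peaks of the same 2 libraries. In the strongest 1000 of both replicates at once were 20 exonic peaks and 98 other autosomal peaks. Exonic peaks were a smaller part there than among all autosomal peaks, where they were 7603 of 24440. At the edge of the rule, with no test, exonic peaks just outside a window and summits just inside it had overlapping intervals. Of 305 exonic peaks up to 100 bp beyond the downstream edge of a window, 26.6% (21.7 to 31.9) were found in both. Of 328 exonic summits up to 100 bp inside it, 30.8% (25.8 to 36.1) were. At the upstream edge 70 of 255 (22.1 to 33.4%) were found in both beyond it, against 72 of 240 (24.3 to 36.2%) inside it. All 4 intervals contain the 27.1% of all autosomal peaks. The strongest 1000 held 3.28% beyond and 4.27% inside the downstream edge, and 3.92% beyond and 5.42% inside the upstream edge. Thresholded peaks numbered 0 beyond and 3 inside the downstream edge, and 2 on each side of the upstream edge.

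Of coding peaks 27.8% of 7103 were found in both replicates, against 31.0% of 378 3' untranslated peaks, a difference that did not pass (odds ratio 0.860 with bounds 0.685 and 1.09, adjusted p = 0.359, Fisher's exact test). They differed at the top of the pooled list, a comparison chosen after the values were seen. The strongest 1000 held 242 coding peaks (3.41%) and 28 3' untranslated peaks (7.41%, 4.98 to 10.5), with an odds ratio of 0.441 (adjusted p = 0.00162, Fisher's exact test). With the limit at the strongest 3000 the odds ratio was 0.736 and the call was lost (adjusted p = 0.116, Fisher's exact test). Among the strongest 3000 of a replicate alone the odds ratio was 0.812 without replicate 1 and 0.968 without replicate 2, and neither passed. Coding peaks in the last exon and in earlier exons did not differ detectably, with 27.1% of 1023 and 28.0% of 6080 found in both (odds ratio 0.957 with bounds 0.821 and 1.11, adjusted p = 0.643, Fisher's exact test).

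Sequence repeated in the genome was less frequent at exonic peaks than at others. A second copy was found for 177 of them (2.33%), against 5.55% in gene start windows, 7.59% in introns and 8.603% in intergenic sequence. Those 177 were found in both replicates at 25.4%, against 28.0% of the 7426 without a copy.

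E-boxes, the sites that helix-loop-helix proteins are known to bind, were denser at exonic summits than beside them. Within 50 bp there were 6.41 per kb, against 5.23 per kb from 150 to 250 bp away, a ratio of 1.22 (exact binomial test, p = 2.74e-27, each E-box taken as independent). Coding peaks had a ratio of 1.25 (exact binomial p = 9.07e-32) and exonic peaks of the strongest 1000 a ratio of 1.48 (p = 4.82e-05, exact binomial test). The 3' untranslated peaks ran the other way, with 3.42 against 4.67 per kb and a ratio of 0.732 (exact binomial p = 0.00261). The 12 thresholded peaks had 8.68 per kb both near and beside the summit, with 10 E-boxes near it.

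The flanks differed from the summits in kind. Sequence within 50 bp of exonic summits was 92.7% exonic with a mean GC content of 43.1%, while the flanks were 66.6% exonic with 38.9% GC. In the 1265 peaks with exon throughout the 250 bp on both sides, a subset chosen after the values were seen, the density was 6.58 per kb near the summit and 6.37 beside it, a ratio of 1.03 (exact binomial p = 0.470). Intronic summits, whose flanks held more exon (31.1%) than their centres (10.4%), had a ratio of 0.879. Gene start windows, with 38.7% exon in centres and 33.4% in flanks, had 1.09. Other classes ran the other way. At 3' untranslated summits, centres held more exon (96.1%) than flanks (75.3%), with a ratio of 0.732. Intergenic centres held less exon (0.618%) than flanks (4.53%), with a ratio of 1.07. The part of exon content in these ratios was not tested. The excess at exonic summits was thus not detectable where centre and flank were both exon.

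At least 1 E-box lay within 50 bp of 45.8% of exonic summits, against 37.4% in gene start windows, 30.8% in introns and 33.0% in intergenic sequence, and 38.3% of all autosomal summits. Away from summits, too, exon was rich in E-boxes: flanks held 6.37 per kb in the 1265 peaks with exon throughout. The flanks of gene start window, intronic and intergenic peaks held 4.53, 4.45 and 4.01 per kb. These shares and those of the forms below take no account of exon or GC content, whose part was not tested. Among the forms, CAAATG was the most frequent, at 12.3% of exonic summits and 8.80% of the other autosomal summits. CAGCTG was at 4.12% against 2.14% and CACGTG at 3.37% against 2.34%. In the 273 exonic peaks of the strongest 1000, CAAATG was at 13.9%, CACATG at 6.96%, and CAGCTG and CACGTG each at 6.59%. These forms and CACCTG were higher there than over all exonic summits, and the other forms were lower. Values for other peaks of the strongest 1000 are not given here. The forms were counted on both strands and have no test. A match is a string of letters and does not show that the protein sat there.

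The exonic peaks were spread over 5245 host genes, 35.2% of the 14908 autosomal protein-coding genes with eligible exon. Of the hosts, 3768 held 1 peak, 1017 held 2 and 460 held 3 or more. A member found in both replicates lay in 1871 genes and one of the strongest 1000 in 263. Hosts had more room for peaks: their median eligible exon was 1325 bp, against 630 bp in eligible genes without a peak.

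The largest number, 24, lay in ttn-1, which encodes a giant titin-like muscle protein, but this gene has 53617 bp of eligible exon and so 0.448 peaks per kb, near the 0.452 of all genes. By peaks found in both replicates, unc-89 led with 8 of 17. It encodes the sarcomeric protein obscurin and had 0.695 peaks per kb, and its best peak had rank 388. Of the 18 peaks in dig-1, a giant protein of the extracellular matrix, 6 were found in both, at 0.457 per kb and with a best rank of 2710. dapk-1 also had 6 found in both, of only 9 peaks, at 1.86 per kb. Its 3 best had ranks 56, 308 and 739. mua-3, a transmembrane protein that anchors the epidermis, and rimb-1, the RIM-binding protein of synapses, had 5 each, of 9 and of 7 peaks. Their densities were 0.783 and 1.69 per kb. dapk-1 and rimb-1, and less so mua-3 and unc-89, were thus denser than all genes together, while dig-1 and ttn-1 followed their length. GC content at the summits was 40.6 to 57.4% in dapk-1 and 45.5 to 70.3% in rimb-1, and its part was not tested. The genes were picked for their counts, so these values are a description.

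Gene lists were compared by peaks per Mb of eligible exon, with no test, beside 452 per Mb (441 to 462) for all genes. Of all eligible genes 35.2% hosted a peak, 12.6% hosted one found in both replicates and 1.76% one of the strongest 1000. Of all exonic peaks, 28.0% were found in both and 3.59% were among the strongest 1000. The bHLH genes, the family of HLH-17 itself, had the highest density of lists with 10 or more peaks, with 24 peaks and 754 per Mb (483 to 1121). In this family 17 of 26 eligible genes (65.4%) hosted a peak, 6 (23.1%) had one found in both replicates and 3 (11.5%) had one of the strongest 1000. Of the 24 peaks 7 (29.2%) were found in both, near the 28.0% of all exonic peaks. Those 3 were hif-1 (rank 150, the hypoxia-inducible factor), mxl-1 (rank 335, a Max-like factor) and mml-1 (rank 443, a Myc and Mondo-like factor). The peak in hif-1 ranked 1135 in replicate 1 and 301 in replicate 2, that in mxl-1, which was 3' untranslated, 6912 and 190, and that in mml-1 2842 and 664. All 3 were found in both replicates. The median GC content of the eligible exon of this list, 39.6%, was below the 40.6% of all genes, and exons of 35 to 40% GC held 409 peaks per Mb.

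Of the 25 lists, 3 had intervals wholly above the value of all genes and 2 wholly below. The others above were cuticle collagens (56 peaks, 610 per Mb, 461 to 792) and proteins of basement membrane and matrix (99 peaks, 591 per Mb, 480 to 719). Cuticle collagens, the structural proteins of the worm's cuticle, had a GC content of 54.5% in eligible exon, and 17.9% of their peaks were found in both replicates, against 28.0% of all exonic peaks. Exons of 50 to 55% GC held 719 per Mb (671 to 770), so the list lay above all genes but not above exons of its own composition. Their best peaks lay in dpy-9 (rank 227) and col-111 (rank 271). In the matrix list 16 of 17 genes hosted a peak, against 35.2% of all eligible genes, but they have more room per gene. These 17 genes hold 167.6 kb of eligible exon, against 16838 kb in the 14908 eligible genes. Of their 99 peaks 26.3% were found in both replicates, against 28.0% of all exonic peaks. The best lay in let-805, the epidermal attachment protein myotactin (rank 313), hmr-1, the cadherin (rank 1285), and nid-1, nidogen (rank 1369). The eligible exon of this list had 44.6% GC, where exons of 40 to 45% GC held 487 per Mb. The lists below were F-box genes (66 peaks, 320 per Mb, 248 to 407, 37.6% GC) and chaperones (18 peaks, 271 per Mb, 161 to 428, 41.6% GC). Their best peaks lay in fbxc-50 (rank 934) and hsp-6, the mitochondrial Hsp70 gene (rank 1702). With 25 lists, some such intervals miss the overall value through the counting of peaks.

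**Figure D5:**
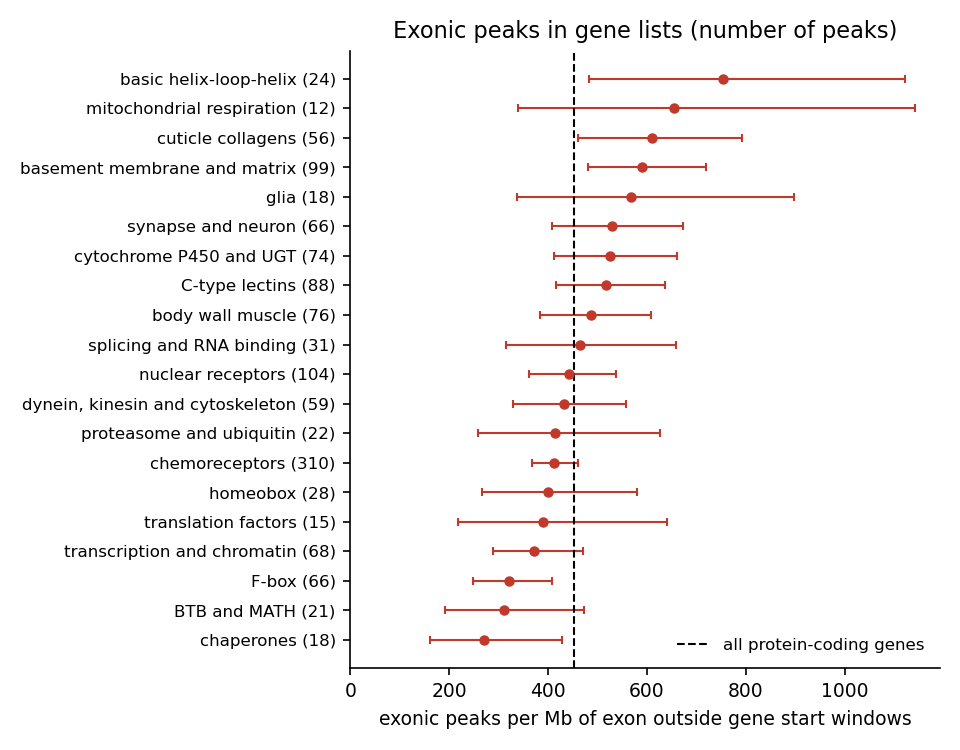
Exonic peaks per Mb of eligible exon (horizontal) for the 20 gene lists with at least 10 exonic peaks, with their number of peaks in brackets. Points carry exact Poisson 95% intervals, and the dashed line marks 452 per Mb for all protein-coding genes. The intervals of bHLH, cuticle collagen and matrix genes lie right of the line, and those of F-box and chaperone genes lie left of it.

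For genes of glia, neurons, chemoreception and 2 families of transcription factors, the density intervals contained the value of all genes, while shares of host genes differed widely. Glia genes had 18 peaks in 11 of 13 eligible genes (84.6%), at 567 per Mb (336 to 897). Over all eligible genes 35.2% hosted a peak, but the 13 glia genes have more room per gene. They hold 31.7 kb of eligible exon, against 16838 kb in the 14908 eligible genes. Of the 18 peaks 5 (27.8%) were found in both replicates and 0 were among the strongest 1000. Their best peaks lay in delm-2, an ion channel subunit of glia (rank 2609), lit-1, a Nemo-like kinase (rank 5292), and kcc-3, a potassium-chloride cotransporter (rank 6331). Genes of synapse and neuron had 66 peaks at 528 per Mb (409 to 672), 34.8% of them found in both. Of these 26 genes 73.1% hosted a peak, 42.3% one found in both and 11.5% one of the strongest 1000, but they hold 125 kb of eligible exon, against 16838 kb in the 14908 eligible genes. Their best peak lay in unc-13, a protein of vesicle priming (rank 255). Chemoreceptor genes, the largest list, had 310 peaks in 288 of 1201 eligible genes (24.0%) at 411 per Mb (367 to 460, 36.6% GC), and srx-65 (rank 197) and srr-8 (rank 345) followed srw-61. Nuclear receptors had 104 peaks at 443 per Mb (362 to 536), with nhr-61 (rank 146), nhr-270 (rank 519) and nhr-2 (rank 631) as the best. Homeobox genes had 28 peaks at 401 per Mb (266 to 579), of which the best lay in a 5' untranslated exon of unc-62, the Meis-type factor (rank 178).

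Lists of genes known for abundant transcripts had densities on both sides of that of all genes. Mitochondrial respiration had 12 peaks at 654 per Mb (338 to 1143), 6 of them found in both replicates, with the best in atp-2, a subunit of ATP synthase (rank 405). Body wall muscle had 76 peaks at 487 per Mb (383 to 609). Translation factors had 15 at 389 per Mb (218 to 641). Of ribosomal protein genes 37 of 78 had any eligible exon, the others having none outside gene start windows. Of the 37, 5 (13.5%) hosted a peak, against 35.2% of all eligible genes, and 0 hosted one found in both, against 12.6%. Their eligible exon was only 9.92 kb, so these 5 peaks gave 504 per Mb (164 to 1176), an interval that contained the value of all genes. Histones had 2 peaks at 489 per Mb (59.3 to 1768), and major sperm protein genes had 0 in 1.15 kb of eligible exon. The only autosomal vitellogenin gene, vit-6, had 5 at 1185 per Mb (385 to 2766). RNA levels were not measured, so no relation to transcription was tested. The remaining lists were C-type lectins (88 peaks, 517 per Mb), cytochrome P450 and UGT enzymes (74, 526), splicing and RNA binding (31, 465), proteasome and ubiquitin (22, 414), cytoskeleton and motors (59, 433), transcription and chromatin (68, 371) and BTB and MATH proteins (21, 310). Of the transgene's genes hlh-17 and unc-119, 1 had eligible exon, 0.855 kb long, and it held 0 exonic peaks, which at 452 per Mb is too short to show a deficit.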

How the data were processed

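Per the deposited notes, the authors made for each replicate, and for both pooled, a relaxed list of peaks against a control, and a thresholded list by the irreproducible discovery rate, all on ce11. The deposited signal value per peak (unit signal, scale not stated) was used only to rank. Of the alignment and peak calling, tool names and versions were not given in the sources used here. Members, gene lists and tests were chosen with earlier results of these data known, and list patterns were corrected after first values had been seen.

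Summits were placed in Ensembl release 115 gene models of WBcel235, in the order gene start window, exon, intron, non-coding gene body (562 peaks, not tested), intergenic. All peak ends lay within the chromosome lengths of the RefSeq sequence used. Shares were compared with two-sided Fisher's exact tests (SciPy 1.17.1). Second copies were sought with BLAST 2.17.0. E-boxes were searched as CANNTG, which reads the same on both strands. Where a summit had more than 1 host gene (26 peaks), a coding host was preferred. The classifier and tests were tested on simulated data. Genes were named by rule: hosts of thresholded peaks, of the 5 strongest coding earlier-exon, coding last-exon and 3' untranslated peaks, the 5 hosts with most peaks in both replicates, and up to 3 hosts per list by best rank. Alternatives changed the summit distance, windows, transcripts, rank limits, replicates, flanks and GC content. Depth is unknown.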

Additional observations from a re-analysis of the deposited data

How the results depend on the processing

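No paired analysis was possible because the 2 replicates form 1 group. Restrictions to peaks without second copies, to 40 to 45% GC, to continuous exon and to the strongest 1000 for subclasses were chosen after seeing the data. Values below are odds ratios unless another quantity is named, and the cause of a change was not tested.

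The deficit of exonic peaks in the thresholded list against gene start windows passed in 8 of 8 alternatives (0.219 to 0.331, highest adjusted p = 0.0222, Fisher's exact test). Where 1 replicate was left out, the strongest 115 peaks of the other stood for that list. Against introns and intergenic peaks it passed in none of the 8, with the same direction, and last against earlier exons passed in none of 11.

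The excess in shares found in both replicates against introns (1.13) lost its call with summits within 50 bp (1.12) or 200 bp (1.08), with windows of 500 and 500 bp (1.10) or 2000 and 1000 bp (1.13), with exons over at least 50% of the peak (1.08), with the longest transcript (1.11) and at 40 to 45% GC (1.02). With 1 replicate required it was 1.01 to 1.14, without a call when replicate 1 was left out. Against gene start windows the ratio turned to 0.983 with windows of 500 and 500 bp and to 0.995 at 40 to 45% GC. Against intergenic peaks it turned to 0.987 with exons over at least 50% of the peak and likewise without second copies (0.987), to 0.841 at 40 to 45% GC, and was 0.989 to 1.08 with 1 replicate required. None of these reversed values passed.

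For the strongest 1000, gene start windows of 2000 and 1000 bp gave 1.09 against those windows, and the strongest 3000 gave 1.04. Leaving out 1 replicate gave 0.769 to 0.907, and the value without replicate 2 passed (adjusted p = 0.00730, Fisher's exact test). Against introns the strongest 3000 gave 1.26 (adjusted p = 0.00106, Fisher's exact test). Against intergenic peaks it gave 1.28 (adjusted p = 0.00470, Fisher's exact test), while the strongest 500 gave 0.969, 40 to 45% GC 0.741, and leaving out 1 replicate 0.930 to 1.08.

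Coding against 3' untranslated peaks passed only among the strongest 1000 (0.441). The density of 455 exonic peaks per Mb was 471 with exons over at least 50% of the peak, 487 at 40 to 45% GC and, by construction, 50.5 for the strongest 3000. The E-box ratio of 1.22 was 1.03 in continuous exon and otherwise 1.37 at most.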
